A study of Mus musculus with 13 samples.

Results

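The 7 genes described here, of 53465 in the table, encode the cyclin-dependent kinase (CDK) inhibitors: Cdkn2a, Cdkn2b, Cdkn2c and Cdkn2d of the INK4 family and Cdkn1a, Cdkn1b and Cdkn1c of the CIP/KIP family. They were picked by name, and the contrast of the neighbours Cdkn2a and Cdkn2b was chosen on the TPM (transcripts per 1000000, which corrects for gene length) of tumors and ovaries, so their difference between tumor and ovary is given as a description, with no test. Bulk polyA RNA was sequenced from normal ovaries of 3 wild-type (WT) C57BL/6 mice, none treated, and from 10 untreated Myc;p53-/- EPO-GEMM (MP) ovarian tumors. In this model the ovary of a WT C57BL/6 mouse aged 8 to 12 weeks is exposed by surgery and electroporated in vivo with a MYC transposon vector, a transposase and a CRISPR-Cas9 vector whose guide targets Trp53. The protocol attached to the ovary libraries is the same text, so 8 to 12 weeks is the only age given for them too. A tumor therefore grows from electroporated cells of the ovary and its surroundings, can hold several clones and also holds cells of the host, and the vectors are not limited to a cell type by the labels. The labels name no pooling of animals, and P values from the fits measure the spread between these libraries.

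INK4 proteins bind CDK4 and CDK6 and keep them from cyclin D, while CIP/KIP proteins bind CDK complexes with cyclins E, A and B as well. Both hold the retinoblastoma protein RB in the form that represses E2F factors. Cdkn2a is unusual in that it makes p16Ink4a and, from another first exon and another reading frame, p19Arf, which binds MDM2 and so protects p53. Cdkn2a and Cdkn2b are known as targets of Polycomb repression in normal cells and of joint deletion in many cancers, and Cdkn1a, which encodes p21, is a direct target of p53.

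Cdkn2a (ENSMUSG00000044303) lies on the minus strand of chromosome 4 at 89274471 to 89294653 in GRCm38, the mm10 build, and Cdkn2b (ENSMUSG00000073802) at 89306289 to 89311032 on the same strand, upstream of Cdkn2a with 11635 bp between them. The GENCODE M21 annotation holds 2 Cdkn2a transcripts. The first exon of the p19Arf transcript spans 89294334 to 89294653 (320 bp) and that of the p16Ink4a transcript 89281986 to 89282192 (207 bp), and their later exons are largely shared. The Cdkn2a length in the table, 1172 bp, equals the union of both, so a gene-level TPM cannot tell p16Ink4a from p19Arf. Both RefSeq start sites of Cdkn2a, 12427 bp apart, are shown with that of Cdkn2b because the same gene TPM sums what starts at either, and the upstream start of Cdkn1a is shown because it holds the only p53 response element found in the members' windows. Each is the 250 bases before the start, 5′ to 3′ on the gene's strand, from RefSeq on GRCm38.p6, in lower case with motif matches in capitals, which mark GGGCGG boxes in Cdkn2a and the p53 response element in Cdkn1a.
Cdkn2a, p19Arf start, chr4:89294620-89294869, minus strand: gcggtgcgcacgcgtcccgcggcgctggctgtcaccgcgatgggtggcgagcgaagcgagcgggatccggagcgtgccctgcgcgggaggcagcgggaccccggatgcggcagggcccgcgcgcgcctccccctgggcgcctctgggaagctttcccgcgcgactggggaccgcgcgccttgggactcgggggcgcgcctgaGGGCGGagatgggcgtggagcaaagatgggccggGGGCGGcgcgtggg
Cdkn2a, p16Ink4a start, chr4:89282193-89282442, minus strand: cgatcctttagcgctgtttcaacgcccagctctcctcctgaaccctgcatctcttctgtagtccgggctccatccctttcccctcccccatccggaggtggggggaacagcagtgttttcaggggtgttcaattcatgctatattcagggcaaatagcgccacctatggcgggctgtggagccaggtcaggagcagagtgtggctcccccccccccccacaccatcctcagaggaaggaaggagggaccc
Cdkn2b, chr4:89311033-89311282, minus strand: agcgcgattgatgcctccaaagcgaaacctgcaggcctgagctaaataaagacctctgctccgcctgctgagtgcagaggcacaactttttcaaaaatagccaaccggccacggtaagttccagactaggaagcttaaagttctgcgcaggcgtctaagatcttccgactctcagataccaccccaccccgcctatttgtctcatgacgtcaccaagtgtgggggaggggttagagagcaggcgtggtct
Cdkn1a, upstream start, chr17:29090729-29090978, plus strand: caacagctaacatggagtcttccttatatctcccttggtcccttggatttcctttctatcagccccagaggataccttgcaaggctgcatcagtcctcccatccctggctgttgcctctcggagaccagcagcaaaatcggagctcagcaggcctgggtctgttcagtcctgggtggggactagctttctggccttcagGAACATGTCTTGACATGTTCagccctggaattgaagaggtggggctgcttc

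The window of the p19Arf start was 78.4% G and C, that of the p16Ink4a start 60.0% and that of Cdkn2b 53.6%. GGGCGG, searched on both strands, occurred at 42 and 8 bases before the p19Arf start and in 32.7% of 32851 RefSeq promoter windows of this length. It also occurred in windows of Cdkn2c, Cdkn2d, Cdkn1a (the downstream start) and Cdkn1b, so that 5 of the 9 member windows hold it. The p53 response element, taken as a pair of adjoining sites with at most 1 mismatch, stood 31 bases before the upstream Cdkn1a start and occurred in 0.0761% of all windows. CACGTG, an E-box bound by MYC among others, occurred in 6.02% of windows. TTTCGCGC or TTTGGCGC, the only forms of an E2F site searched, occurred in 0.654%, and TATAAA in 12.4%. These letters were not found in any of the 9 windows of the 6 members that RefSeq's table held. Other forms of the E2F site were not searched, and such a form, TTTCCCGC, stands in lower case in the p19Arf window above. No window was listed for Cdkn1c. A match is a description of these letters and not evidence of binding.

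Reads worked back from the steps of the TPM values came to between 31445004 and 64013840 per ovary and between 3892690 and 19906507 per tumor. For a gene of 1 kb, 1 read stood for 0.0513 to 0.109 TPM in ovaries and 0.114 to 0.790 TPM in tumors. In MP 2, 10 genes held 55.1% of all TPM, against at most 20.6% in the other tumors. The targeted gene Trp53 stood at 80.7, 85.0 and 85.4 TPM in WT 1 to WT 3 and at 4.30 to 26.0 TPM in 9 tumors, but at 187 TPM in the library labelled MP 10, above every ovary. A guide cuts DNA, and RNA need not be lost, so this level alone does not settle the genotype. The sample descriptions also carry a code, called here A for all 3 ovaries and MP 1 to MP 3, B for MP 4 to MP 6 and C for the other 4 tumors, and do not say what samples of a code share.

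Cdkn2a was the lowest of the 7 inhibitors in every ovary and the highest in every tumor. It measured 3.56, 2.59 and 3.98 TPM in WT 1, WT 2 and WT 3. In the tumors it measured 763 TPM in MP 1, 124 in MP 2, 914 in MP 3, 398 in MP 4, 320 in MP 5, 232 in MP 6, 777 in MP 7, 448 in MP 8, 282 in MP 9 and 475 in the library labelled MP 10. All 10 tumors lay above all 3 ovaries, and even the lowest tumor, MP 2, was far from the ovary range. Means were 473 ± 262 TPM (SD, n = 10) in tumors and 3.38 ± 0.713 TPM (SD, n = 3) in ovaries, a difference of 6.55 (SE 0.50) on the scale of log2(TPM + 1). Among all genes ranked by TPM within a library, Cdkn2a stood between 169 and 700 in tumors (median 306) and between 12207 and 13245 in ovaries. The ovary values rested on 28 to 91 reads and the tumor values on 474 to 9391, so counting error was small against the gap. Bulk RNA cannot tell fewer cells of a type from less RNA per cell, here and for every gene below.

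Cdkn2b, whose product p15Ink4b also binds CDK4 and CDK6, showed the opposite order. It measured 78.5, 98.1 and 218 TPM in WT 1, WT 2 and WT 3. In the tumors it measured 8.49 TPM in MP 1, 2.58 in MP 2, 2.54 in MP 3, 14.8 in MP 4, 18.2 in MP 5, 1.02 in MP 6, 8.30 in MP 7, 2.70 in MP 8, 10.5 in MP 9 and 3.69 in the library labelled MP 10. Every tumor lay below every ovary. Means were 7.28 ± 5.83 TPM (SD, n = 10) in tumors and 132 ± 75.7 TPM (SD, n = 3) in ovaries, a log2(TPM + 1) difference of -4.20 (SE 0.65). The low tumor values rest on few reads: MP 6 had 4 reads, with an exact 95% Poisson interval of 0.278 to 2.61 TPM, and MP 10 had 8, with 1.59 to 7.28 TPM. These intervals cover counting error only, and their upper ends stayed below the lowest ovary.

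**Figure D1:**
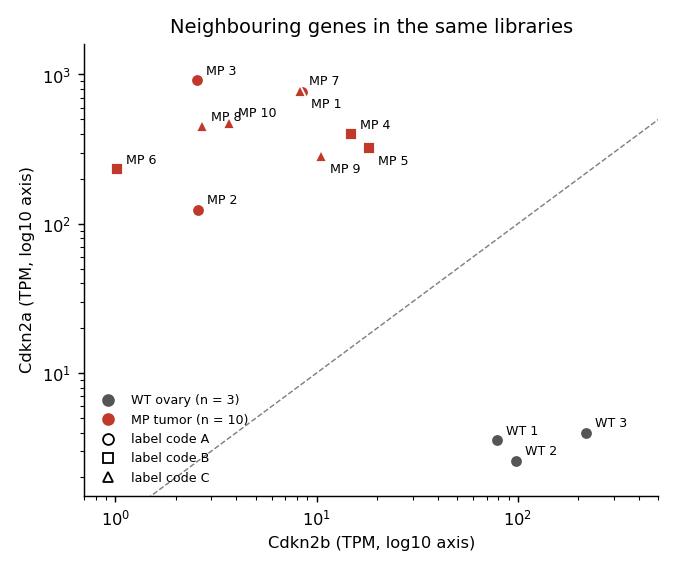
Cdkn2a against Cdkn2b in each of the 13 libraries, both in TPM on log10 axes, with ovaries in grey, tumors in red, marker shape for the label code and a dashed line where both levels are equal. The 10 tumors lie above the line, with Cdkn2a at 124 TPM or more and Cdkn2b at 18.2 TPM or less, and the 3 ovaries lie below it.

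The neighbours thus changed places between tissues. In ovaries the Cdkn2b TPM was 22.04 to 54.8 times that of Cdkn2a, and in tumors the Cdkn2a TPM was 17.6 to 360 times that of Cdkn2b (median 91.7). On the scale of log2(TPM + 1) the Cdkn2a minus Cdkn2b difference was -4.79 ± 0.67 (SD, n = 3) in ovaries and 5.96 ± 1.27 (SD, n = 10) in tumors. The gap between these means was 10.75, and it was 11.28 among libraries of code A alone and 10.68 without the library labelled MP 10. Within tumors the levels of these neighbours were not seen to follow each other: Pearson r of log2(TPM + 1) was 0.18 (permutation P = 0.624, adjusted 0.728, n = 10) and Spearman rho 0.0061 (permutation P = 1, adjusted 1). Without MP 2 and MP 3, the tumors farthest from the Cdkn2a median, r was 0.20, and r of values centred within label code was 0.27 (exact permutation P = 0.387).

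Cdkn2c, which encodes p18Ink4c, lies on the same chromosome at 109660876 to 109667189. It was almost constant in ovaries and, on the scale of log2(TPM + 1), varied most among tumors. It measured 49.8, 46.4 and 48.9 TPM in WT 1 to WT 3. In tumors it ran from 1.78 TPM in MP 3 to 86.2 TPM in MP 5, with a median of 21.3 TPM. The ranges overlap, with tumors on both sides of the ovaries, and the log2(TPM + 1) difference was -1.38 (SE 1.01), or -0.73 with median-of-ratios scaling and -0.68 after quantile normalization. Its SD among tumors on the log2(TPM + 1) scale, 1.91, was the largest of the 7 members, against 0.05 among ovaries. On TPM its SD was 95.1% of the tumor mean, below Cdkn1a at 121% and Cdkn1c at 104%. Cdkn2d, which encodes p19Ink4d on chromosome 9, measured 27.3, 29.3 and 36.8 TPM in ovaries and 8.35 to 41.3 TPM in tumors (median 22.2). These groups also overlap, and the sign of the Cdkn2d difference depends on scaling: it was -0.53 (SE 0.48) on TPM, 0.16 with median-of-ratios scaling and 0.15 after quantile normalization.

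Cdkn1b, which encodes p27 on chromosome 6, was the highest of the 7 in every ovary and below every ovary in every tumor. It measured 274, 209 and 222 TPM in WT 1 to WT 3 and 39.8 to 113 TPM in tumors (median 64.3). Means were 235 ± 34.8 TPM (SD, n = 3) and 70.7 ± 27.9 TPM (SD, n = 10), a log2(TPM + 1) difference of -1.81 (SE 0.37), which was -1.09 with median-of-ratios scaling. Among tumors Cdkn1b varied least of the members, with an SD of 0.56 on that scale.

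Cdkn1a, which encodes p21 on chromosome 17, measured 35.1, 111 and 142 TPM in WT 1 to WT 3. Tumors ran from 3.16 TPM in MP 2 to 82.3 TPM in MP 9, with a median of 10.5 TPM, so MP 1 at 37.2 TPM and MP 9 overlap the ovaries and 8 tumors lie below all of them. Its log2(TPM + 1) difference was -2.62 (SE 0.78), or -1.93 with median-of-ratios scaling, -2.10 after quantile normalization and -3.22 without WT 1. Cdkn1c, which encodes p57 from an imprinted gene on chromosome 7, measured 24.9, 7.99 and 9.03 TPM in ovaries and 3.83 to 132 TPM in tumors (median 26.9). MP 1 at 117 TPM and MP 7 at 132 TPM stood highest, the groups overlap, and the log2(TPM + 1) difference was 1.07 (SE 0.85), or 1.73 with median-of-ratios scaling and 1.84 after quantile normalization. In GENCODE M21, 625 exonic bases of Cdkn1c are shared with Gm44732 and 273 of Cdkn1a with AC167363.2, both on the opposite strand. The sources used here do not say whether counting used strand, so reads there cannot be told apart, whereas no other gene's exons overlap the other 5 members. Cdkn1a and Cdkn2b do not carry the M21 start and end, as 5 of the 7 members do. The Cdkn1a length behind its TPM is 2223 bp, against 3553 exonic bp in M21. For Cdkn1a and Cdkn2b the overlaps in M21 therefore need not be those of the exons counted.

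**Figure D2:**
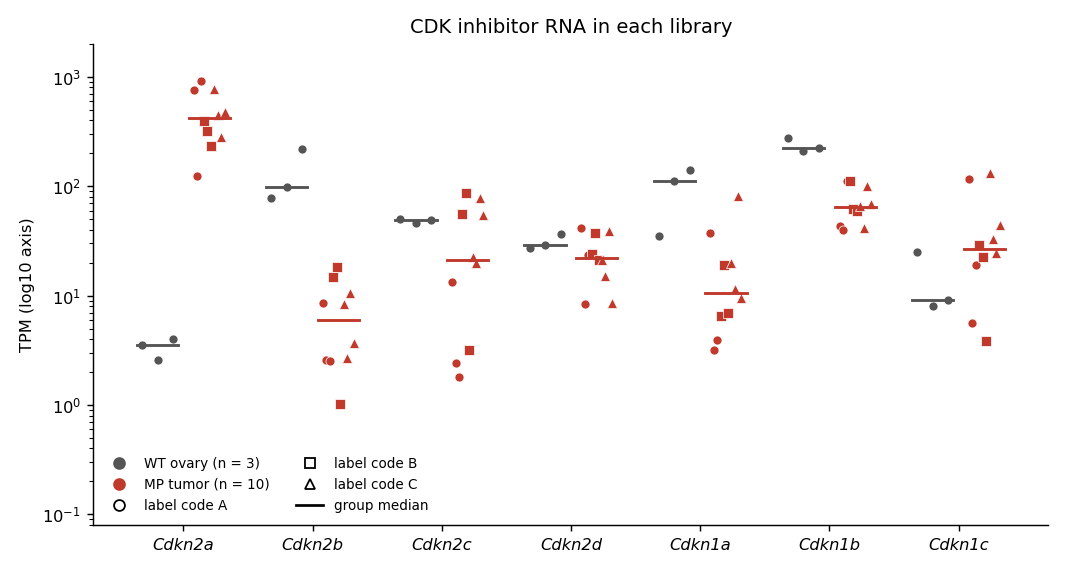
TPM (log10 axis) of the 7 CDK inhibitor genes in each of 3 WT ovaries (grey) and 10 MP tumors (red), with marker shape for the label code and a line at each group's median. Groups do not overlap for Cdkn2a, Cdkn2b and Cdkn1b, and overlap for the other 4 genes.

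All 7 members passed the filter of at least 1 TPM in at least 3 libraries. Tumors lay above all ovaries for 1 member, where 3.02% of 17277 tested genes did so, and below all ovaries for 2, where 16.4% did. Since the members were chosen with this contrast known, nothing is read from these shares. The median log2(TPM + 1) difference of all tested genes was itself -0.58, a shift that went to -0.02 with median-of-ratios scaling and 0.08 after quantile normalization. Relative to it, Cdkn2a was still far above and Cdkn2b far below: their differences were 7.11 and -3.51 with median-of-ratios scaling and 7.10 and -3.72 after quantile normalization.

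The order of the members differed between tissues. By median TPM, which is per length, the ovaries ran Cdkn1b, Cdkn1a, Cdkn2b, Cdkn2c, Cdkn2d, Cdkn1c and Cdkn2a. Each adjoining pair kept that order in 3 of 3 ovaries except Cdkn1a and Cdkn2b, which held it in 1. The tumors ran Cdkn2a, Cdkn1b, Cdkn1c, Cdkn2d, Cdkn2c, Cdkn1a and Cdkn2b. Cdkn2a was above Cdkn1b in 10 of 10 tumors, Cdkn1b above Cdkn1c in 8 and Cdkn1a above Cdkn2b in 9, but the neighbours from Cdkn1c down to Cdkn1a held their order in only 4 or 5. Summed over the 7 genes, ovaries reached 493 to 680 TPM and tumors 186 to 1077 TPM, which overlap. Cdkn2a made up 0.514 to 0.722% of that sum in ovaries and 45.9 to 84.8% in tumors. Without it the other 6 genes came to 490 to 676 TPM in ovaries and 61.9 to 333 TPM in tumors, with no overlap.

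Markers of cells of the normal ovary were low in the tumors. The 5 granulosa markers summed to 3225 to 5990 TPM in ovaries and 4.46 to 1507 TPM in tumors, the 5 theca and luteal markers to 25024 to 28130 and 7.44 to 824 TPM, and the 5 oocyte markers to 245 to 368 and 1.38 to 22.3 TPM. Each of these 3 sums was below every ovary in 10 of 10 tumors, with 5 of 5, 4 of 5 and 5 of 5 genes not overlapping, and Fshr, Cyp19a1, Lhcgr, Zp2, Bmp15 and Oosp1 were at 0 in at least 5 tumors. Sums for 3 endothelial and 3 smooth muscle markers were also below every ovary in all 10 tumors, at 3.68 to 170 against 206 to 214 TPM and 44.0 to 1228 against 1278 to 1501 TPM, with 2 of 3 and 1 of 3 genes not overlapping. The smooth muscle sum was mostly Acta2, which overlapped, and Des was above all ovaries in 4 tumors. The 5 epithelial markers ranged from 5.49 to 1150 TPM in tumors against 227 to 257 TPM in ovaries, above all ovaries in 2 tumors and below in 8. The 4 fibroblast markers ranged from 18.3 to 2785 against 708 to 1361 TPM and the 4 immune markers from 23.1 to 176 against 109 to 254 TPM, with Cd3e at 0 in at least 5 tumors. The sums of granulosa, luteal, oocyte and endothelial markers separate the tissues as Cdkn2a, Cdkn2b and Cdkn1b do, and their part in the inhibitors' levels was not tested.

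All 3 ovaries carry code A, so the comparison was repeated with the 3 tumors of that code alone. The log2(TPM + 1) differences were then 6.68 for Cdkn2a, -4.60 for Cdkn2b, -3.27 for Cdkn2c, -0.58 for Cdkn2d, -3.17 for Cdkn1a, -1.99 for Cdkn1b and 0.91 for Cdkn1c, beside a median of -1.44 over all tested genes. Only the Cdkn2c difference moved by more than 1.5 times. Among tumors, Cdkn2c measured 13.2, 2.41 and 1.78 TPM in MP 1, MP 2 and MP 3, and 3.17 to 86.2 TPM in the 7 tumors of the other codes, where only MP 6 was below 19.8 TPM. In limma over the 10 tumors it was lower in code A by a log2(TPM + 1) difference of -2.69 (SE 0.86, adjusted P = 0.0282), the 1 member of 7 called. In that comparison 35.0% of 15833 genes were called in either direction and 33.6% were lower, and the median difference was -0.95 (225 genes higher and 5320 lower, against 2401 and 1761 with median-of-ratios scaling). The call was lost while the difference stayed between -2.25 and -2.69 without MP 2 (adjusted P = 0.1103), without MP 3 (0.121), without the library labelled MP 10 (0.0502) and with no filter (0.0541). It was also lost with median-of-ratios scaling (-1.58, adjusted P = 0.156) and after quantile normalization (-1.53, adjusted P = 0.191). The tumors of code A had 10564737 to 19906507 reads against 3892690 to 17178256 in the others, and the part of depth and of the uneven MP 2 library was not tested.

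Among the 10 tumors r of log2(TPM + 1) was positive in all 21 pairs of members, from 0.02 to 0.78. Signs of the weak pairs were not stable: with median-of-ratios scaling 4 pairs were negative (Cdkn2c with Cdkn2a, Cdkn2d and Cdkn1b, and Cdkn1a with Cdkn1b, down to -0.38), and rho was negative in 2 (Cdkn2a with Cdkn2c and Cdkn1a with Cdkn1b). In permutation tests none of the 21 pairs passed 0.05 after Benjamini-Hochberg adjustment of Pearson's r, and 3 had an unadjusted P under 0.05. Cdkn2b and Cdkn2c had r = 0.78 (permutation P = 0.0113, adjusted 0.119) and rho = 0.87 (permutation P = 0.0022, adjusted 0.0454). Their r was 0.67 without MP 5 and MP 6, 0.56 with median-of-ratios scaling and 0.90 centred within label code (exact permutation P = 0.0197). Cdkn2a and Cdkn1c had r = 0.77 (permutation P = 0.0104, adjusted 0.119) and rho = 0.64 (permutation P = 0.0549, adjusted 0.313), with r = 0.94 without MP 2 and MP 3 and 0.76 within code (exact permutation P = 0.0544). This pair did pass when MP 3 alone was left out, with r = 0.93 and an adjusted permutation P of 0.0114. Cdkn2d and Cdkn1a had r = 0.67 (permutation P = 0.0339, adjusted 0.237) and rho = 0.58 (permutation P = 0.0879, adjusted 0.313), with r = 0.67 without MP 2 and the library labelled MP 10 and 0.88 within code (exact permutation P = 0.0104). All libraries share the constraint that TPM sums to a fixed total, so these pairs are not independent of the composition of each tumor.

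**Figure D3:**
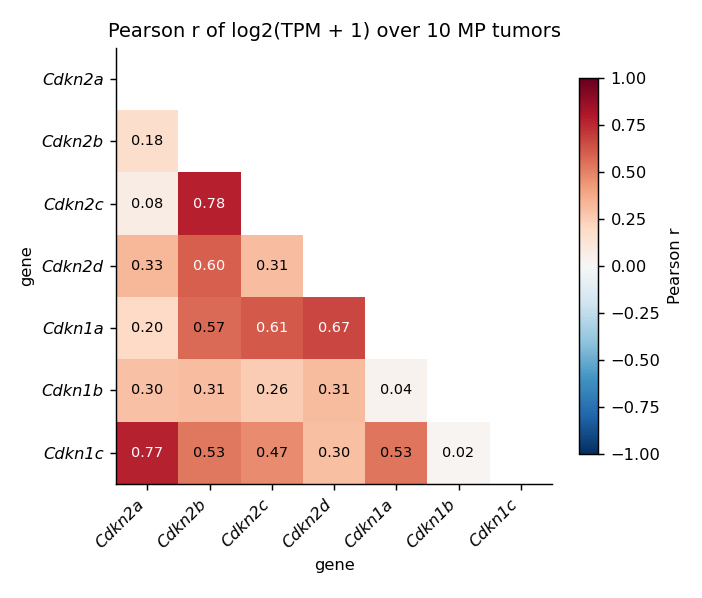
Pearson r of log2(TPM + 1) between each pair of the 7 CDK inhibitor genes over 10 MP tumors, with colour from -1 to 1 and the value in each cell. The darkest cells are Cdkn2b with Cdkn2c at 0.78 and Cdkn2a with Cdkn1c at 0.77, and the neighbours Cdkn2a and Cdkn2b are at 0.18.

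Of 8 relations of members with known regulators or a neighbour over the same tumors, none passed 0.05 after adjustment. The strongest was Cdkn1a with Mdm2, another p53 target, at r = 0.63 (permutation P = 0.0539, adjusted 0.431) and rho = 0.64 (permutation P = 0.0551, adjusted 0.441), with r = 0.56 without MP 2 and MP 6 and 0.61 within code (exact permutation P = 0.0903). With median-of-ratios scaling, r of Cdkn1a with Mdm2 was only 0.28 (adjusted permutation P = 0.540). Cdkn2a with Rb1, the gene of RB, had r = -0.28 (permutation P = 0.437, adjusted 0.858) and rho = -0.36 (permutation P = 0.314, adjusted 0.503), with r = -0.05 without MP 1 and MP 9 and -0.41 within code (exact permutation P = 0.0556). Without MP 2 alone it was -0.83 (exact permutation test, adjusted P = 0.0711). With median-of-ratios scaling that r became -0.88 (adjusted permutation P = 0.0061), the only relation to pass under any scaling tried. The other 6, Cdkn2a with Trp53, E2f1 and Myc, Cdkn2b with Mtap and Tgfb1, and Cdkn1a with Trp53, had r between -0.37 and 0.33 and adjusted permutation P values of 0.858 to 0.953. Some of these moved with single tumors or the scaling: r of Cdkn1a with Trp53 was 0.02 over all tumors and 0.61 without MP 1 and the library labelled MP 10, and -0.46 with median-of-ratios scaling. Without 1 tumor at a time, r ran from -0.48 to 0.43 for Cdkn2a with E2f1 and from -0.39 to 0.45 for Cdkn2a with Myc.

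The genes whose level over the tumors was most like that of Cdkn2a, among 10943 with a mean tumor level of at least 5 TPM, were Neu1, a lysosomal sialidase (r = 0.94, rho = 0.85), Chchd7 (r = 0.94, rho = 0.89), Emc7 of the endoplasmic reticulum membrane protein complex (r = 0.93, rho = 0.87), the small GTPase Rap1a (r = 0.92, rho = 0.85) and the RNA exosome subunit Exosc5 (r = 0.91, rho = 0.93). Among those most like Cdkn2b were Irak2, a kinase of interleukin-1 receptor signalling (r = 0.94, rho = 0.95), the p53 target Trp53inp1 (r = 0.94, rho = 0.88), Plbd1 (r = 0.92, rho = 0.96) and the protein C receptor Procr (r = 0.90, rho = 0.87). The genes named differ between the lists. Without MP 2 the r values ran from 0.87 to 0.89 for Cdkn2a and from 0.90 to 0.96 for Cdkn2b, and as the top of a long list over 10 tumors they carry no test.

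Around the locus, 69 genes of the table lie within 1 Mb and 13 passed the filter, 11 of them not members. In limma against ovaries 0 of the 11 rose (1 at an unadjusted P under 0.05) and 1 fell, beside 2.51% of all tested genes higher and 14.3% lower. Voom on the reads called 5 higher and 2 lower, where it called 1892 higher and 4092 lower of 17277 genes. The gene that fell, C87499, measured 4.87 to 7.35 TPM in ovaries and was listed at 0 in all 10 tumors. Mtap, the methylthioadenosine phosphorylase gene on the 3′ side of Cdkn2a, measured 80.5, 82.3 and 76.3 TPM in ovaries and 50.4 to 245 TPM in tumors, above all ovaries in 8 tumors, with a log2(TPM + 1) difference of 0.78 (SE 0.45, adjusted P = 0.234). Gm12606 is a long noncoding RNA on the same strand. It starts at 89273403, just past the 3′ end of Cdkn2a at 89274471 and 21.3 kb from the p19Arf start. It was at 0 in all 3 ovaries and above 0 in 9 tumors, from 0.209 TPM to 63.3 TPM in MP 3 (adjusted P = 0.175 in limma). Gm12609 and Gm12610, on the far side of Cdkn2b and on the opposite strand, measured at most 0.505 and 0.560 TPM in ovaries and up to 4.22 and 4.43 TPM in tumors, with adjusted P values of 0.165 and 0.103. Beyond them Dmrta1, a DMRT-family gene, measured 3.09 to 4.95 TPM in ovaries, 39.7 TPM in MP 4 and at most 3.02 TPM in the other 9 tumors. The remaining genes were within a log2(TPM + 1) difference of 1, apart from Hacd4 at -1.75 (SE 0.84, adjusted P = 0.158). Voom, an alternative fit to the reads worked back, called Mtap (log2 difference 1.18, SE 0.39, adjusted P = 0.0305), Gm12606, Gm12609, Gm12610 and the pseudogene Mrpl48-ps higher and Hacd4 lower beside C87499, so the count of neighbours that changed depends on the fit.

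**Figure D4:**
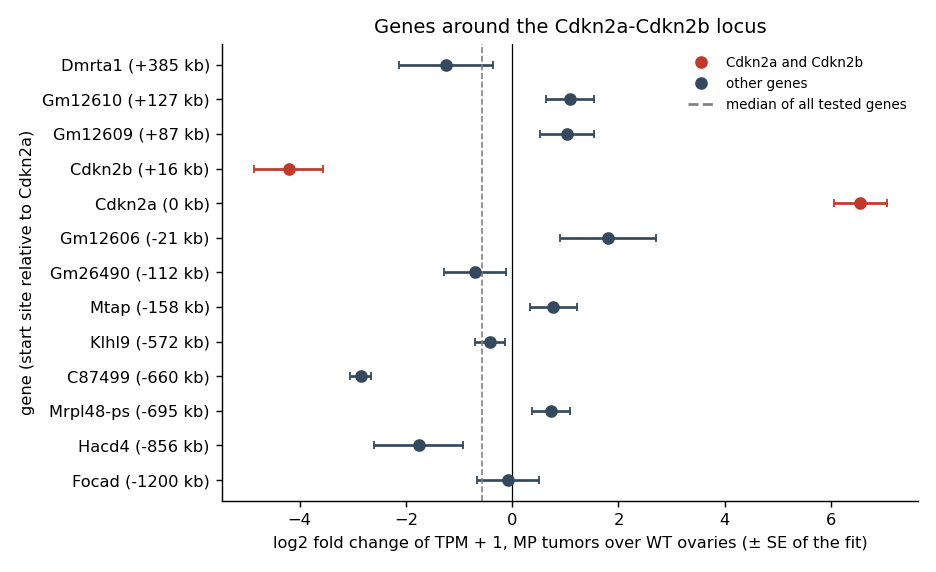
Log2 fold change of TPM + 1 between 10 MP tumors and 3 WT ovaries, with bars for the SE of the fit, for the 13 genes around the locus that passed the filter, ordered by the distance of their start sites from that of Cdkn2a in kb. Cdkn2a at 6.55 and Cdkn2b at -4.20 (red) lie at the ends of the plot, the other 11 genes run from -2.85 for C87499, at 0 in every tumor, to 1.80 for Gm12606, at 0 in every ovary, both set in part by the 1 added to each TPM, and the dashed line marks the median of all tested genes at -0.58.

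The other genes of the pathway were 83 genes in 8 lists, all of which passed the filter and were tested in the same limma fit. Of these, 9 rose, 12 fell and 62 did not pass, with a median log2(TPM + 1) difference of -0.49 beside -0.58 for all 17277 tested genes, of which 433 rose and 2463 fell. The split leans on scaling: with median-of-ratios scaling 16 pathway genes rose and 11 fell (1274 and 1897 of all genes), and after quantile normalization 17 rose and 12 fell (1904 and 2091). It leans on the label code as well: with the code as a covariate 7 rose and 46 fell, and within code A 8 rose and 47 fell. Those that fell were then 55.4% and 56.6% of the pathway genes, where 49.4% and 62.4% of all tested genes fell. On unscaled TPM the 9 and 12 calls lean on all 3 ovaries: leaving out WT 1, WT 2 or WT 3 left 7, 7 and 6 of the 21 calls, and leaving out MP 8 brought the genes that rose to 5. In no alternative tried did any of the 21 change sign. Where a list below has 0 calls in a direction, limma at an unadjusted P under 0.05 and voom on the reads are given beside it where either called any. Of all tested genes, voom called 11% higher and 23.7% lower. The share of all tested genes past the unadjusted threshold is not given. The unadjusted counts, here and for the neighbours above, therefore have no background to be read against.

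Of the 11 cyclins and CDKs that the inhibitors bind, 5 rose (6 unadjusted, 6 by voom) and 0 fell, and their median difference was 0.82. Ccne1, the cyclin E1 gene that partners CDK2, went from 6.91 ± 1.49 TPM in ovaries to 50.2 ± 32.9 TPM in tumors (log2 difference 2.39, SE 0.61, adjusted P = 0.0144). Cdk1, the mitotic kinase, went from 51.6 ± 16.5 to 163 ± 75.6 TPM (1.56, SE 0.41, adjusted P = 0.0177), and Ccnb1, its cyclin B1 partner, from 21.1 ± 6.08 to 75.3 ± 34.7 TPM (1.65, SE 0.49, adjusted P = 0.0313). Ccne2 and Ccna2 also rose, at 1.74 and 1.48. The CDKs that INK4 proteins bind did not pass, with Cdk4 at 0.82 (unadjusted P = 0.0312 and adjusted P = 0.112 in limma) and Cdk6 at 0.45, nor did the D cyclins, with Ccnd1 at -0.09, Ccnd2 at -0.9998 and Ccnd3 at -0.48. Of 13 pocket proteins and E2F factors, 0 rose (1 unadjusted, 2 by voom) and 2 fell, the pocket protein genes Rb1 and Rbl2. Rb1 went from 22.9 ± 2.32 TPM in ovaries to 6.35 ± 4.18 TPM in tumors, with all 10 tumors below all ovaries (log2 difference -1.94, SE 0.55, adjusted P = 0.0268). The Rb1 difference was -1.89 to -2.02 without 1 ovary, where the call was lost (adjusted P = 0.117 to 0.138), and -3.04 within code A (adjusted P = 1.9e-05). Rbl2 differed by -1.90 (SE 0.61, adjusted P = 0.0457).

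In the ARF-MDM2-p53 list 1 of 6 rose and 0 fell (2 unadjusted, 2 by voom). Npm1, whose product nucleophosmin binds p19Arf in the nucleolus, went from 755 ± 103 to 2871 ± 1159 TPM (log2 difference 1.81, SE 0.39, adjusted P = 0.0053). Mdm2, which encodes the ligase that p19Arf restrains, did not pass (-0.65, adjusted P = 0.203, positive with median-of-ratios scaling), nor did Trp53 (-2.23, SE 0.77, adjusted P = 0.0579), which passed without the library labelled MP 10 (-2.61, SE 0.49, adjusted P = 0.0024) and also with all tumors kept, with label code as a covariate (-3.41, adjusted P = 0.0021) and by voom (-2.14, adjusted P = 0.0068). Of 10 p53 targets beside Cdkn1a, 0 rose and 4 fell: Trp53inp1 (-3.79), Phlda3 (-2.61), Plk2 (-2.08) and Ccng1 (-1.69). The cyclin G1 gene Ccng1 went from 112 ± 3.49 to 36.1 ± 12.7 TPM without overlap (adjusted P = 0.0053). The other 6 did not pass, with Sesn2 at -1.76, Zmat3 at -1.45, Aen at -0.49, Eda2r at -0.27 and the apoptosis genes Bax and Bbc3 at 0.39 and 1.34.

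Among regulators of the locus, 0 of 15 repressors rose (2 by voom) and 2 fell (4 unadjusted, 3 by voom). Of 5 activators 0 rose and 0 fell (1 unadjusted, 1 by voom). The repressors that fell were the T-box genes Tbx2 (-3.22, SE 0.69, adjusted P = 0.0050) and Tbx3 (-4.01, SE 0.78, adjusted P = 0.0026), at 25.4 ± 1.82 and 45.5 ± 13.4 TPM in ovaries and 2.92 ± 3.47 and 3.32 ± 4.18 TPM in tumors. Polycomb genes did not pass in limma. They ran from Cbx2 at -1.33 and Ring1 at -1.09 (unadjusted P = 0.0446 in limma) to Ezh2 at 0.72, with Bmi1 at -0.55, Cbx7 at -0.43 and Suz12 at -0.05 between. Of 13 regulators of Cdkn2b, Cdkn1a and Cdkn1b in the TGF-beta, SMAD, FOXO and MIZ1 list, 0 rose and 4 fell. These were the forkhead factor gene Foxo1 (-4.81, SE 0.99, adjusted P = 0.0039), the receptor genes Tgfbr1 (-2.73, SE 0.48, adjusted P = 0.0012) and Tgfbr2 (-2.83, adjusted P = 0.0406) and the ligand gene Tgfb1 (-2.59, SE 0.80, adjusted P = 0.0388). The list's median difference was -1.27. Of 10 ubiquitin ligase genes acting on p21 and p27, 3 rose and 0 fell: Skp2 (1.72, SE 0.49, adjusted P = 0.0268) and Cks1b (2.05, SE 0.39, adjusted P = 0.0020), which act together on p27, and Dtl (1.57, SE 0.49, adjusted P = 0.0387), which recognises p21. The marker sums of granulosa, luteal, oocyte, endothelial and smooth muscle cells were lower in the same tumors, and their part in these changes was not tested.

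**Figure D5:**
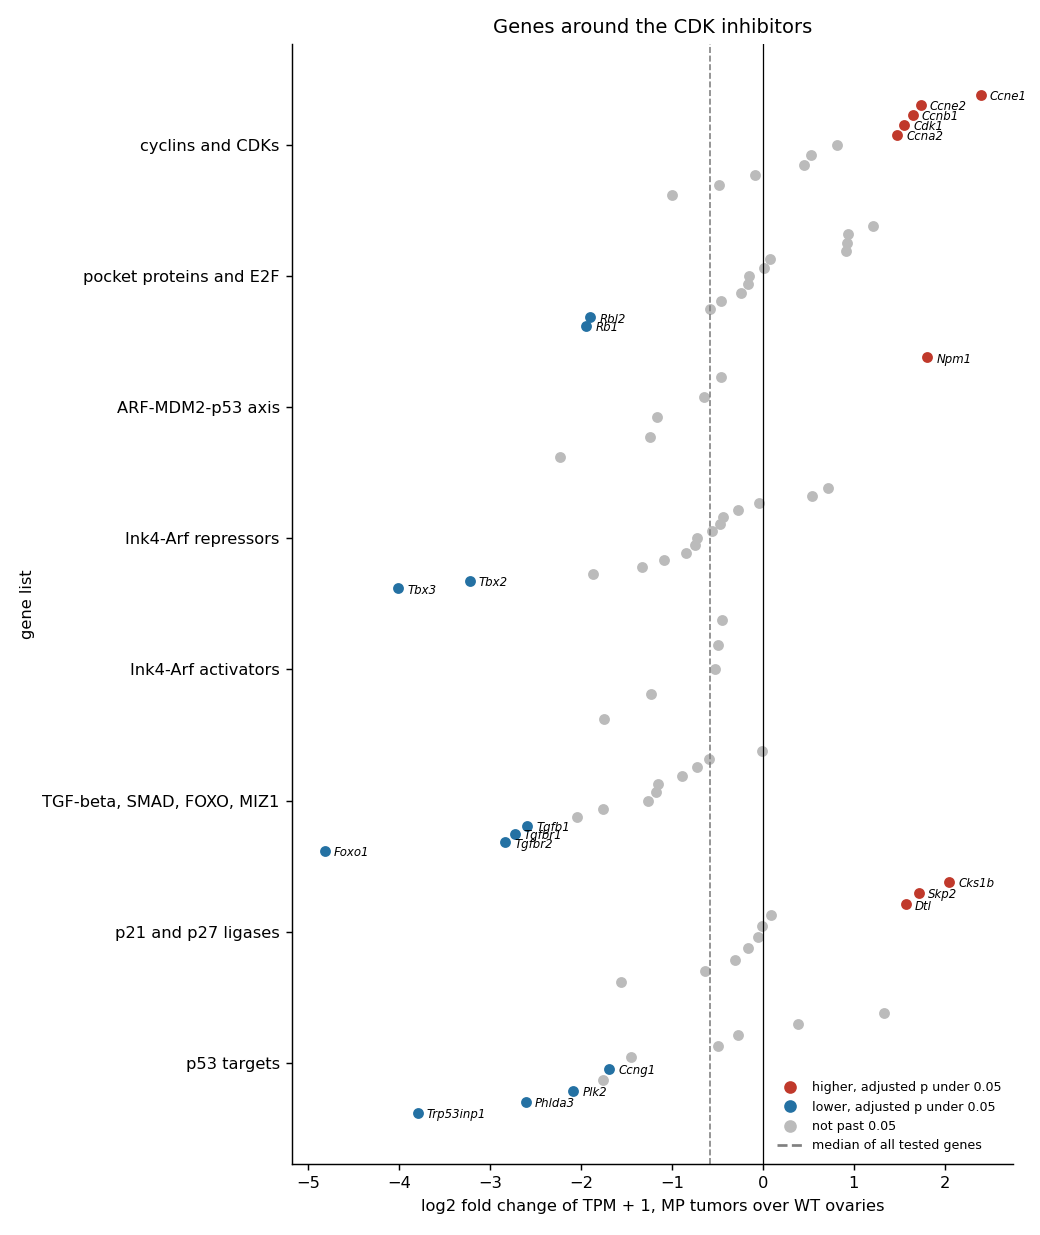
Log2 fold change of TPM + 1 between 10 MP tumors and 3 WT ovaries for 83 genes around the CDK inhibitors in 8 lists, with genes higher (red) or lower (blue) at an adjusted P under 0.05 named and the others in grey. The 9 genes that rose lie in 3 lists, cyclins and CDKs, the ARF-MDM2-p53 axis and the ligases of p21 and p27, and the 12 that fell lie in 4 others.

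Myc, the mouse gene of the oncogene in the transposon, measured 126 to 129 TPM in ovaries and 7.09 to 419 TPM in tumors, with MP 1, MP 2 and MP 3 at 24.7, 7.09 and 15.3 TPM. It did not pass (log2 difference -0.67, SE 1.02, adjusted P = 0.654, positive with median-of-ratios scaling). The transposon's own sequence was not used here, so this value need not count what it makes.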

How the data were processed

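Bulk RNA-seq of 3 WT ovaries and 10 MP tumors was analysed from the TPM table that the authors deposited, which holds 1 column for each library and is not pooled. Per the submitters' processing notes the tools were FastQC 0.11.5, Trimmomatic 0.36, STAR 2.5.3a and featureCounts 1.6.3 with builds mm10 and GRCm38. The labels' protocol names a human build, HTSeq and RPKM instead, so unit and build were checked on the table. TPM sums to 1000000 in each library (0 columns belonged to other samples). The start and end of GENCODE M21 are carried by 96.0% of genes and by 5 of the 7 members, not by Cdkn1a and Cdkn2b. TPM is a share, so a gene's value falls when others take more. Whether counting used strand is not given in the sources used here.

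Reads were worked back from TPM steps and gene lengths (100% whole within 0.05 reads in each library), with exact 95% Poisson intervals for counting error only. Libraries of 1 group differed by more than sampling noise (chi-square per degree of freedom 25.8 to 591), so none was counted as a repeat. Genes with at least 1 TPM in at least 3 libraries were tested as log2(TPM + 1) with limma 3.58.1 (trended, robust) in R 4.3.3, with Benjamini-Hochberg adjustment over all genes tested and a threshold of 0.05. Differences on this scale understate changes of low genes. Correlations over the 10 tumors used 100000 permutations, 2-sided, with adjustment over 21 pairs or 8 relations, and all 864 permutations within label codes for centred values. Other steps ran in Python 3.11.15, and the fits were tested on simulated data.

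The members and gene lists were chosen with earlier results of these data known. Named genes are all members, the tested genes within 1 Mb of the locus, up to 3 genes in each direction with the largest moderated statistic in each list, Trp53, Rb1, Mdm2 and Myc, and the 5 genes most like Cdkn2a and Cdkn2b by r, of which 1 is not reported here. Other genes of the lists are named beside their counts and were chosen after their values were seen. Alternatives varied the pseudocount, filter, scaling, label code, replicate block, single libraries, limma options and a voom fit to the reads.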

Additional observations from a re-analysis of the deposited data

Results flagged for a closer look

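In a group of 10 tumors, a sample was picked out when its gap to the nearest other sample exceeded 0.466 of the whole range of log2(TPM + 1) (Dixon's 95% critical value). Of 39 measures examined, 3 had such a sample, where chance gives about 1 in 20, or 1.95. Trp53 measured 187 TPM in the library labelled MP 10, against 4.30 to 26.0 TPM in the other 9 tumors. Gm12606, the noncoding RNA past the 3′ end of Cdkn2a, measured 63.3 TPM in MP 3, the tumor with the highest Cdkn2a, against 0 to 4.35 TPM in the others. Dmrta1, on the far side of Cdkn2b, measured 39.7 TPM in MP 4 against 0 to 3.02 TPM in the others, and MP 4 also had the highest sums of granulosa, oocyte and epithelial markers. None of the 7 CDK inhibitor genes had a tumor that met this criterion on the log2(TPM + 1) scale, whereas on the TPM scale Cdkn1a in MP 9 did (0.570 of the range). Causes were not tested.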

How the results depend on the processing

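Of the 7 members, only Cdkn2d changed direction under any alternative: its log2 difference was 0.16 with median-of-ratios scaling and 0.15 after quantile normalization. With median-of-ratios scaling and quantile normalization Cdkn1b came to -1.09 and -1.64, Cdkn2c to -0.73 and -0.68 and Cdkn1c to 1.73 and 1.84. Leaving out single libraries gave 6.41 to 6.74 for Cdkn2a and -4.50 to -3.77 for Cdkn2b. Counts of genes moved far more. Those that rose (433) came to 1274 with median-of-ratios scaling, 1904 after quantile normalization, 894 with label code as a covariate, 1043 within code A, 1892 with voom and 65 to 637 without single libraries. Those that fell (2463) came to 8534 with the covariate, 9504 within the code, 4092 with voom and 604 to 3238 without single libraries. Pathway genes that rose (9) came to 16, 17 and 14 with median-of-ratios scaling, quantile normalization and voom, and to 1 to 10 without single libraries. Those that fell (12) came to 46 with the covariate, 47 within the code, 19 with voom and 5 to 14 without single libraries. The lowest of these counts came from leaving out an ovary, which leaves 2. A replicate block was tried because ovaries and tumors share the numbers 1 to 3, which leaves the same 6 libraries as code A alone: with it 1043 genes rose, 9620 fell and 52 pathway genes fell, against 1043, 9504 and 47 without it. The numbers are not known to pair these animals. Deviations of same-numbered libraries correlated at -0.10, -0.01 and 0.00, and so few libraries cannot decide whether the animals were paired. Between tumors of code A and the others, genes higher (225) came to 2401 with median-of-ratios scaling, 1707 after quantile normalization and 37 to 351 without single tumors, and genes lower (5320) to 1761, 1434 and 2984 to 5676. The single member called there came to 0 with no filter, median-of-ratios scaling or quantile normalization, and to 0 to 1 without single tumors. Member pairs past the threshold were 0 to 1 without single tumors, and 1 relation passed with median-of-ratios scaling. Focad turned to 0.86 after quantile normalization. Of 671 values for 31 named genes that are not members, 587 kept their side of the threshold, 51 lost and 32 gained it and 1, that of Focad, passed in the other direction. Signs changed in 13 of these values, all of 5 genes that did not pass (Focad, Gm26490, Klhl9, Mdm2 and Myc). Of 377 correlations 375 kept their side of the threshold, and 26 changed sign. Causes were not tested. Depth limits Cdkn2b most, at 4 reads in MP 6.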
